A study of Mus musculus with 8 samples.

Results

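The genes described here are 54 genes of DNA replication and S phase, chosen by their function and looked up by symbol in a table of raw read counts for 33435 genes. All 54 had a row, and 53 held enough counts to be tested. They were grouped by role as 12 genes of origin licensing, 8 of helicase activation, 18 of the replication fork, 4 of nucleotide supply and 12 regulators of the passage from G1 to S phase. The counts came from 8 libraries of polyadenylated RNA from mouse myeloid progenitors. Fetal liver hematopoietic stem and progenitor cells of E14.5 embryos (strain C57BL/6J) had been infected with Trim27 virus, which carries a ubiquitin ligase of the tripartite motif family, or with GFP control virus, an empty vector in the series' own design, and myeloid progenitors were sorted from the infected cells. There were 4 libraries per group. Both groups were thus infected, sorted cells. The promoter of the viruses, the sorting gate and whether a group's libraries came from separate animals or cultures stand as not given in the sources used here. All p-values therefore measure no more than the spread among these libraries, which may be technical.

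Before a cell copies its DNA, the origin recognition complex, Cdc6 and Cdt1 load the MCM helicase on chromatin in G1. In S phase the kinase Cdc7 with its subunit Dbf4, and cyclin-dependent kinases, switch the helicase on by adding Cdc45 and the GINS complex. Polymerases, the sliding clamp and its loader then copy the strands. Cyclins and their kinases inactivate the retinoblastoma family in late G1, which frees E2F factors to activate many of these genes. Progenitors of the fetal liver are known to divide quickly.

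The GFP libraries held 9257889 to 10747794 counts in total and those with Trim27 held 10551137 to 16366571. These totals overlapped between groups, whereas genes with a count above 0 (11131 to 11850 with GFP, 12962 to 13283 with Trim27) and TMM factors (0.891 to 0.905 and 1.09 to 1.13) separated them. Their part in rises from near 0 counts, such as those of Ccne2, Dbf4 and Fen1, was not tested. Trim27 itself rose from 181 ± 8.52 to 293 ± 18.4 CPM (SD, n = 4 each; log2 fold change 0.70, SE 0.054, adjusted p = 7.4e-13, edgeR's quasi-likelihood test), and its value was 0.14 (adjusted p = 0.0277) with the trend of counts on gene length removed. With the trend fitted on abundant genes removed, the value of the Trim27 gene was 0.74 (adjusted p = 6.2e-13, same test). DESeq2 size factors gave 0.73 and upper-quartile factors 0.75, and library size alone gave a larger rise than TMM. Only removal of the trend fitted on all genes thus made this rise small. CPM here is a gene's count relative to the library size after TMM scaling, which assumes that most genes do not change. Trim27 replicate 1 stood somewhat apart. Chi-square per degree of freedom for its counts against the other Trim27 libraries was 6.71 to 11.2, against 2.63 to 4.83 for the other pairs within groups and 115.7 to 148.0 between groups. Markers of the labelled cell type had counts, which does not by itself show what the cells were. Of 12 myeloid progenitor markers 11 had counts, and only Flt3 had none. With GFP those with counts ran from 20.0 CPM for Fcgr3 to 694 CPM for Prtn3. Mpo had means of 551 CPM with GFP and 488 CPM with Trim27. The summed level of the myeloid progenitor markers was 2120 to 2229 CPM with GFP and 2313 to 2546 CPM with Trim27. Of the 11 tested, 2 were up and 8 down. The higher sum rests on Csf2rb (472 to 1193 CPM), singled out after its values were seen. Without it the markers summed to 1641 to 1749 CPM with GFP and 1179.6 to 1343 CPM with Trim27, so the direction turned. Markers of other cells differed between the groups too. The summed level of 11 erythroid markers was 1853 to 1898 CPM with GFP and 1363 to 1529 CPM with Trim27 (5 up, 6 down). That lower sum rests on Klf1 (911 to 502 CPM), also singled out after its values were seen. The 10 B cell markers summed to 66.6 to 160.5 CPM with GFP and 41.1 to 56.2 CPM with Trim27 (0 up, 6 down of 9 tested). The 10 hepatocyte markers summed to 1.20 to 1.70 and 15.1 to 17.6 CPM (2 up, 0 down of 2 tested), although 6 of them, Alb and Ttr included, had no count. The 10 macrophage markers summed to 31.0 to 34.8 and 12.2 to 15.2 CPM, with C1qa and 6 others at 0. Only 2 of them were tested, and they went opposite ways: Csf1r fell from 33.3 to 2.79 CPM, and Emr1 rose from 0 counts over the GFP libraries to 678 over the Trim27 libraries. The 10 endothelial and stromal markers summed to 74.7 to 83.6 and 33.4 to 34.7 CPM, with Cdh5 and 5 others at 0. Of the 3 tested, Pdgfrb (45.9 to 5.58 CPM) and Pecam1 (32.7 to 26.5 CPM) fell, and Col1a2 rose from 0 to 118 counts. The part of such cells in the results below was not tested.

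The replication genes did not move as a block. Of the 53 tested, 24 rose, 23 fell and 6 did not pass the threshold of 0.05 on the adjusted p. Their median log2 fold change was 0.05, beside 0.14 for all 11040 genes tested. Thus 88.7% of the members were called, against 85.5% of all genes. The share that rose was 45.3% (47.5% of all genes), and the share that fell was 43.4% (38% of all genes). These shares lie near those of the whole table, so the number of calls is no result about replication genes. The groups did not overlap for 46 members, which is 86.8% of them, against 80.7% of all genes. In bulk RNA, fewer cells in a phase of the cycle and less RNA per cell cannot be told apart.

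Large changes were few. At least 2-fold rises were found in 6 members, namely Ccne2, Dbf4, Cdc7, Lig1, E2f2 and Cdc45, and 4 fell at least 2-fold, namely Rbl1, Ccne1, Rfc1 and Rpa3. They make up 11.3% and 7.55% of the members, against 31.3% and 16% of all genes tested. Large changes were common among genes of low abundance in these libraries, and most members were abundant. Among the 36 members that averaged 6 log2 CPM or more, 16 rose (44.4%, against 30.7% of all genes that abundant) and 17 fell (47.2%, against 56.3%), with a median of -0.01 beside -0.23. Among the 17 members below that bound, 5 rose at least 2-fold (29.4%, against 39.4%) and 3 fell at least 2-fold (17.6%, against 17.3%).

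**Figure D1:**
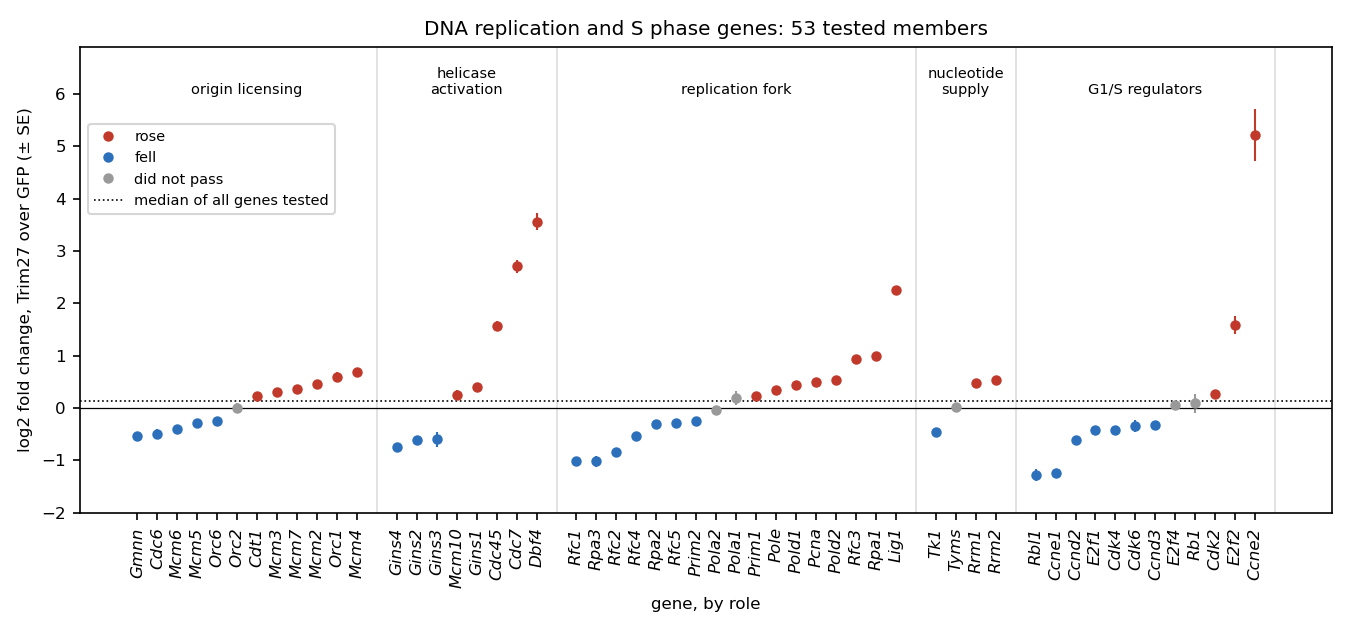
Log2 fold change (Trim27 over GFP, y axis, with its SE) of the 53 tested replication genes, ordered within each role on the x axis; red points rose, blue points fell and grey points did not pass, and the dotted line is the median of all genes tested (0.14). Most points lie between -1 and 1, and Ccne2, Dbf4, Cdc7 and Lig1 lie above 2.

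The direction of many small changes depended on how the libraries were scaled. With library size alone as the scale, the median of all genes moved from 0.14 to 0.44 and that of the members from 0.05 to 0.35, and 30 members rose and 12 fell. Over all genes the calls were then 66.9% rises, against 55.6% with TMM. With the trend of each library on gene length removed, 15 members rose and 31 fell (median -0.39, beside -0.07 for all genes). Rises were then 47.4% of the calls over all genes. With the length trend fitted on abundant genes only, 25 members rose and 19 fell (median 0.13, beside 0.36), and rises were 64.6% of all calls. Over TMM and 5 other scalings, 15 members rose under each, 10 fell under each, and 28 changed their call or had none. How many of all genes kept their call under each of these scalings was not counted, so these numbers have no background. Of the 28, Orc2, Mcm10, Pola1, Pola2, Pole, Tyms, E2f4 and Rb1 (8 genes) passed in both directions depending on the scaling. The 15 were Mcm4, Orc1, Cdc45, Gins1, Cdc7, Dbf4, Pcna, Rfc3, Rpa1, Prim1, Pold2, Lig1, Rrm2, Ccne2 and E2f2. The 10 were Gins2, Gins4, Rfc1, Rfc2, Rfc4, Tk1, Ccnd2, Cdk4, Ccne1 and Rbl1. Differences between members within a library do not depend on TMM or library size, and they are given as ratios where they matter, though a ratio of genes of unequal length still carries the length trend.

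**Figure D2:**
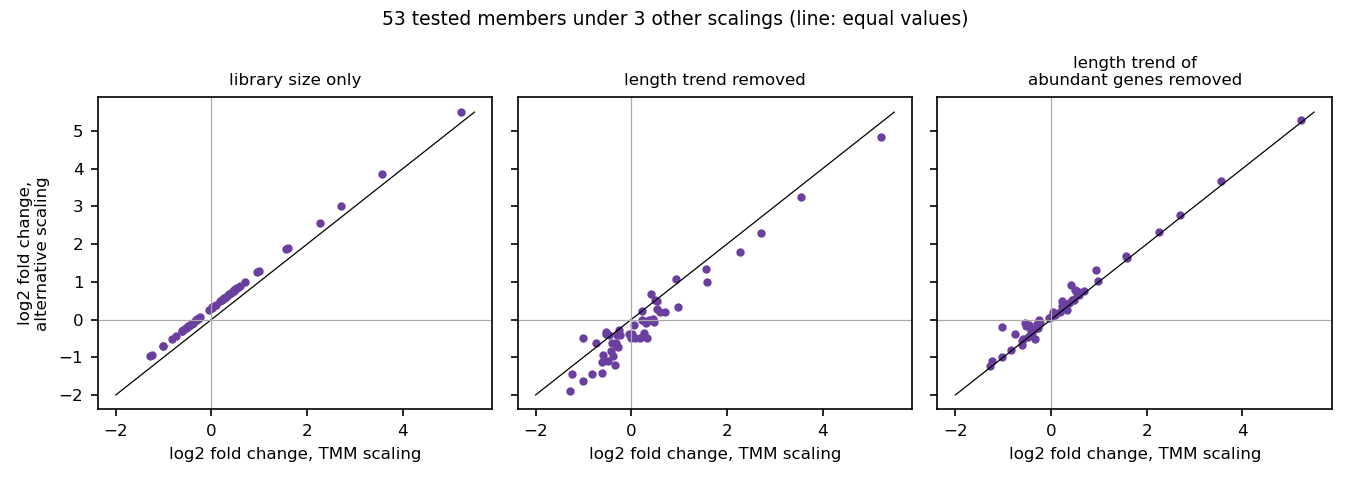
Log2 fold changes of the 53 tested members with TMM scaling (x axis) against 3 other scalings (y axis), with the line of equal values; each point is 1 gene. Library size alone puts all 53 points above the line, removing the length trend fitted on all genes puts 45 below it, and removing the trend fitted on abundant genes puts 50 above it.

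Origin licensing genes split, with 6 of 12 up, 5 down and 1 that did not pass (median 0.11). Rises were 50% of them and falls 41.7%, against 47.5% and 38% of all genes. No member changed 2-fold. Their summed level was 2784 to 2800 CPM with GFP and 2700 to 2839 CPM with Trim27, so the ranges overlapped. Within the MCM hexamer, the helicase core, Mcm2, Mcm3, Mcm4 and Mcm7 rose and Mcm5 and Mcm6 fell by TMM, and of these only Mcm4 passed in the same direction under all 6 scalings. Mcm4 was at 77.1, 76.6, 81.8 and 78.7 CPM in GFP replicates 1 to 4 and 138, 123, 122 and 126 CPM in Trim27 replicates 1 to 4. Every Trim27 library lay above every GFP library (log2 fold change 0.70, SE 0.060, adjusted p = 7.9e-12, edgeR's quasi-likelihood test). Mcm2 was at 327, 314, 322 and 310.0 CPM in GFP replicates 1 to 4 and 421, 447, 446 and 439 CPM in Trim27 replicates 1 to 4, again without overlap (log2 fold change 0.46, SE 0.046, adjusted p = 1.8e-10), but its value was 0.017 (adjusted p = 0.751) with the length trend removed. With the trend fitted on abundant genes removed it was 0.53 (adjusted p = 7.3e-12). Mcm3 (0.30) and Mcm7 (0.37) also rose, though their values were -0.081 and -0.0071 with the length trend removed. With the trend fitted on abundant genes removed they were 0.37 and 0.43. Mcm5 fell from 584 ± 22.1 to 481 ± 35.5 CPM (SD, n = 4 each; log2 fold change -0.28, SE 0.051, adjusted p = 1.0e-05), but it was at 0.022 under library size alone. Mcm6 fell from 582 ± 19.2 to 444 ± 3.32 CPM (SD, n = 4 each; log2 fold change -0.39, SE 0.045, adjusted p = 2.8e-09), and under library size alone it was at -0.088 (adjusted p = 0.0535).

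The 2 subunits that fell by TMM were the 2 with the highest level per length in the GFP group. Per kilobase of exon, Mcm5 was at 169.0 ± 6.39 CPM, Mcm6 at 133.0 ± 4.39, Mcm2 at 94.4 ± 2.26, Mcm7 at 69.2 ± 3.09, Mcm3 at 68.1 ± 2.38 and Mcm4 at 21.9 ± 0.649 (SD, n = 4). Mcm7 and Mcm3 overlapped between libraries, and the other neighbours in this order did not. In the Trim27 group Mcm5 was at 139.0 ± 10.3 CPM per kilobase and Mcm2 at 130.0 ± 3.55, which overlapped. Mcm6 followed at 101.4 ± 0.759, Mcm7 at 89.1 ± 3.87, Mcm3 at 83.9 ± 0.779, overlapping with Mcm7, and Mcm4 at 35.5 ± 2.15. The highest subunit was 7.72-fold above the lowest with GFP and 3.92-fold with Trim27. The sum over the 6 subunits changed little, from 1974 ± 16.2 to 2008 ± 49.7 CPM (SD, n = 4 each), with overlapping libraries.

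**Figure D3:**
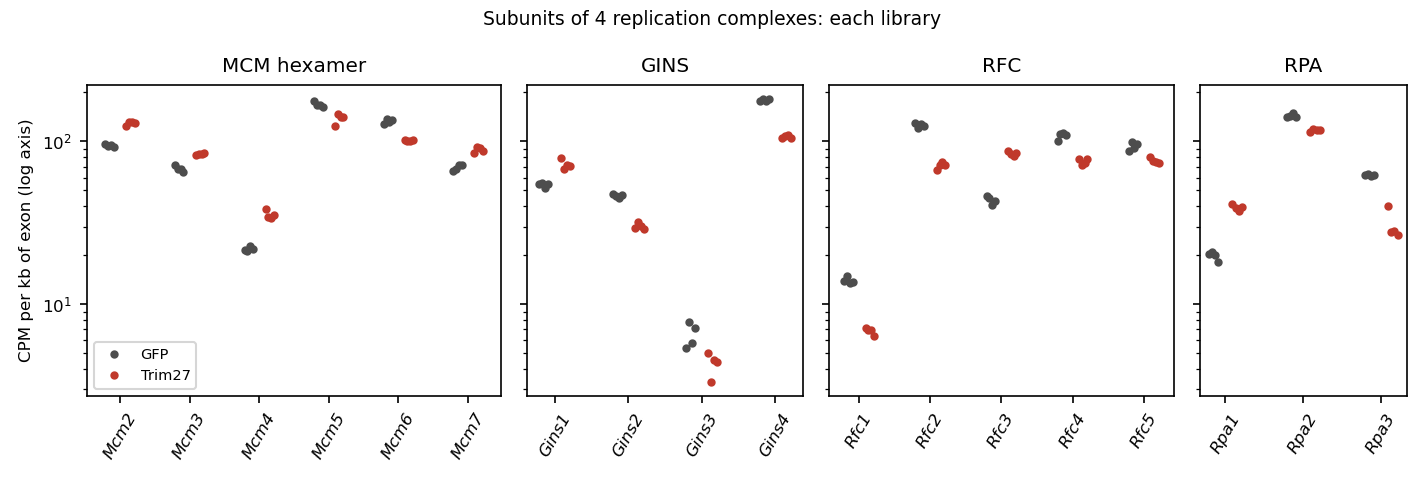
Level per kilobase of exon (CPM per kb, log axis) of each subunit of the MCM hexamer, GINS, RFC and RPA in each of the 4 GFP (grey) and 4 Trim27 (red) libraries. Subunits of 1 complex move in both directions, such as Mcm4 up and Mcm6 down, Gins1 up and Gins4 down, Rfc3 up and Rfc2 down, and Rpa1 up and Rpa3 down.

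E2F factors are known to act at MCM and other replication promoters, so the promoters of the members were searched for the E2F consensus, spelled as the 4 forms TTTCCCGC, TTTCGCGC, TTTGCCGC and TTTGGCGC on both strands. Forms on opposite strands can overlap, and each match was counted. RefSeq promoters of the build GRCm38.p6, from 250 bases before to 50 bases after a gene's start, were at hand for 42 members. Of these, 15 (35.7%) held a match in any of their promoters, against 2.6% of all 27025 genes with a promoter and 5.09% of the 7785 tested genes with a promoter. Counted by promoter, 2.26% of all 32851 held a match. The stretches before the start of Mcm5, Mcm6 and Mcm7 are printed since they hold matches in subunits that moved in opposite directions. That of Rbl1, which fell most among the tested members, is printed since it alone held a match among the promoters picked by rule. Capitals mark the matches, and each sequence runs 5′ to 3′ on the gene's strand up to the base before its start.
Mcm5 (chr8:75109259-75109508, plus strand): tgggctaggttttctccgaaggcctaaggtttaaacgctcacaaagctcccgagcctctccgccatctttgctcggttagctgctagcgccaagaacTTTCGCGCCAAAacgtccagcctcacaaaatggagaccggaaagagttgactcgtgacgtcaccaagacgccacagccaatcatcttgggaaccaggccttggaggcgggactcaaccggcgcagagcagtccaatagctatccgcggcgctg
Mcm6 (chr1:128359706-128359955, minus strand): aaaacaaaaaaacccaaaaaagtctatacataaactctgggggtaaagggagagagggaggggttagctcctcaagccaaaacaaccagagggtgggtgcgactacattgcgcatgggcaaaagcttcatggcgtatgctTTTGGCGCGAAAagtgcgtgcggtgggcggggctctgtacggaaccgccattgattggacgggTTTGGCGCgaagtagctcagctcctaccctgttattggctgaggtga
Mcm7 (chr5:138171884-138172133, minus strand): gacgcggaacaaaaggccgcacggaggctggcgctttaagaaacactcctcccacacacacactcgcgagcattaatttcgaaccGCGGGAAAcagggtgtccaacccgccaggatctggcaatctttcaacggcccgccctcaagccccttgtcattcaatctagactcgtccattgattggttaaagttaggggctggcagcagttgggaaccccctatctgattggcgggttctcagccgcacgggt
Rbl1 (chr2:157204535-157204784, minus strand): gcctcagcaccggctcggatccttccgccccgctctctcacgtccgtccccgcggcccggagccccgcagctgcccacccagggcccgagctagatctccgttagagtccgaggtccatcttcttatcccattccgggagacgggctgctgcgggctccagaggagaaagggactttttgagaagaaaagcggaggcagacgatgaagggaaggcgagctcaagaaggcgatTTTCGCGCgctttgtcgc
Mcm5 held 2 overlapping matches 153 to 142 bases before the start, and Mcm6 held 2 overlapping matches 110 to 99 bases before it and 1 more from 47 to 40. In the 250 bases before the start Mcm7 held 1 match, 165 to 158 bases before it, and Rbl1 held 1 at 18 to 11. Mcm7 held 2 matches in the 300 bases searched, and Mcm3, which rose by TMM, held 2 there and none in the 250 bases before the start, so it is not printed. Of the 15 members with a match, 9 rose and 5 fell (median 0.27, range -1.28 to 2.26). Of the 26 tested members with a promoter and no match, 11 rose and 12 fell (median -0.02, range -1.25 to 3.56). Over all genes tested, 47.5% rose and 38% fell. The calls of other tested genes with a match were not counted, so these counts are no result about the motif. A match is a string of letters and not a measured binding site.

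Among the factors that load the helicase, Cdt1 and its inhibitor geminin (Gmnn) moved apart. Gmnn was at 178, 172, 169.6 and 179 CPM in GFP replicates 1 to 4 and 126, 114, 114 and 128 CPM in Trim27 replicates 1 to 4, lower in every Trim27 library (log2 fold change -0.54, SE 0.055, adjusted p = 3.4e-10), but it was at -0.092 (adjusted p = 0.122) with the length trend fitted on abundant genes removed. Removing the trend fitted on all genes gave -0.32 (adjusted p = 6.3e-06). Cdt1 was at 319, 325, 326 and 338 CPM in GFP replicates 1 to 4 and 329, 395, 396 and 408 CPM in Trim27 replicates 1 to 4. Trim27 replicate 1 lay within the GFP range and the 3 other Trim27 libraries above it (log2 fold change 0.22, SE 0.056, adjusted p = 0.000537), and without the length trend the value of Cdt1 was -0.024. With the trend fitted on abundant genes removed, Cdt1 was at 0.35 (adjusted p = 7.6e-07). The ratio of Cdt1 to Gmnn counts was 1.79, 1.90, 1.92 and 1.89 in GFP replicates 1 to 4. It was higher, at 2.62, 3.47, 3.46 and 3.19, in Trim27 replicates 1 to 4, and on the log2 scale its mean went from 0.91 ± 0.0436 to 1.66 ± 0.189 (SD, n = 4 each). Cdc6, the ATPase that works with Cdt1, fell (log2 fold change -0.49, SE 0.092, adjusted p = 1.7e-05), though under library size alone it was at -0.18 (adjusted p = 0.071). Of the origin recognition subunits, Orc1 was at 24.2, 26.4, 20.9 and 25.9 CPM in GFP replicates 1 to 4 and 41.7, 35.9, 33.4 and 36.2 CPM in Trim27 replicates 1 to 4 and rose (log2 fold change 0.59, SE 0.098, adjusted p = 2.5e-06). Orc2 was at 35.4, 35.6, 38.4 and 34.03 CPM in GFP replicates 1 to 4 and 35.4, 33.2, 35.9 and 39.6 CPM in Trim27 replicates 1 to 4, with overlapping groups (log2 fold change 0.0047, SE 0.086, adjusted p = 0.96). It shares 854 of 3561 exon bases with Nif3l1 on the opposite strand, which fell (-1.86). Orc6 fell by TMM (-0.25), but was at 0.053 under library size alone. The log2 ratio of Orc1 to Orc2 went from -0.56 ± 0.218 to 0.03 ± 0.177 (SD, n = 4 each) without overlap.

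Among the members that were tested, the kinase that activates the helicase had the largest rises outside the cyclins. All 8 genes of helicase activation were called (85.5% of all genes were), 5 up and 3 down (median 0.33). The 3 rises of at least 2-fold made up 37.5% of them, near the 31.3% of all genes. Dbf4, the regulatory subunit of the Cdc7 kinase, was at 3.31, 3.40, 1.79 and 1.85 CPM in GFP replicates 1 to 4 and 32.2, 32.4, 29.2 and 28.7 CPM in Trim27 replicates 1 to 4. The lowest Trim27 library was 8.42-fold above the highest GFP library, and the fitted fold between groups was 11.8 (log2 fold change 3.56, SE 0.16, adjusted p = 5.3e-18). Its GFP level rests on 94 counts over 4 libraries, and the ratio of the summed counts was 11.9 (95% counting interval 9.64 to 14.7). Cdc7, the catalytic subunit, was at 5.48, 4.04, 5.86 and 5.76 CPM in GFP replicates 1 to 4 and 37.4, 30.9, 33.9 and 35.9 CPM in Trim27 replicates 1 to 4 (6.53-fold; log2 fold change 2.71, SE 0.13, adjusted p = 1.7e-17). Both subunits were scarce in the GFP libraries. Per kilobase of exon, Cdc7 and Dbf4 had means of 1.63 and 1.06 CPM with GFP and 10.7 and 12.6 CPM with Trim27. The log2 ratio of Cdc7 to Dbf4 counts varied among the GFP libraries (1.08 ± 0.712) and less in the Trim27 libraries (0.17 ± 0.168, SD, n = 4 each), and the groups overlapped.

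Cdc45, which joins MCM and GINS to form the active helicase, was at 15.2, 13.6, 14.1 and 14.6 CPM in GFP replicates 1 to 4 and 40.1, 41.3, 44.1 and 44.6 CPM in Trim27 replicates 1 to 4. It was about tripled in every Trim27 library (log2 fold change 1.56, SE 0.096, adjusted p = 3.9e-15). Of the 4 GINS subunits, 1 rose and 3 fell. Gins4 was at 238, 247, 238 and 245 CPM in GFP replicates 1 to 4 and 142, 146, 148 and 141 CPM in Trim27 replicates 1 to 4, lower in all Trim27 libraries (log2 fold change -0.75, SE 0.049, adjusted p = 1.7e-14). Gins2 fell as well, from 180 to 118 CPM (-0.61). Of its 3900 exon bases, 2758 are shared with Gse1 on the opposite strand. Gse1 had means of 3.80 CPM with GFP and 3.33 CPM with Trim27 (-0.18, adjusted p = 0.522). Gins3 was at 14.6, 21.1, 15.7 and 19.4 CPM in GFP replicates 1 to 4 and 13.7, 9.03, 12.4 and 11.97 CPM in Trim27 replicates 1 to 4 and fell (log2 fold change -0.59, SE 0.15, adjusted p = 0.000455), though under library size alone it was at -0.29 (adjusted p = 0.075). Gins1 rose from 58.9 ± 1.61 to 78.4 ± 5.07 CPM (SD, n = 4 each; log2 fold change 0.41, SE 0.067, adjusted p = 1.9e-06). Mcm10, which helps the helicase to start, was at 30.4, 29.9, 30.97 and 29.8 CPM in GFP replicates 1 to 4 and 32.3, 39.97, 34.4 and 38.2 CPM in Trim27 replicates 1 to 4. Its libraries did not overlap (log2 fold change 0.26, SE 0.090, adjusted p = 0.00975), but the call was lost without Trim27 replicate 2 at 0.17 (adjusted p = 0.103) and without Trim27 replicate 4 at 0.20 (adjusted p = 0.0588), and the value was -0.36 (adjusted p = 0.000838) with the length trend removed. It was 0.29 (adjusted p = 0.00443) with the trend fitted on abundant genes removed.

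Replication fork genes were also divided, with 8 of 17 tested members up, 7 down and 2 that did not pass (median 0.19). Rises were 47.1% of those tested and falls 41.2%, against 47.5% and 38% of all genes. The summed level of the fork genes was 2699 to 2771 CPM with GFP and 2821 to 2887 CPM with Trim27. Lig1, the ligase that seals Okazaki fragments, had the smallest p of all members. It was at 34.5, 33.5, 37.3 and 36.4 CPM in GFP replicates 1 to 4 and 158, 172, 177 and 173 CPM in Trim27 replicates 1 to 4. Each Trim27 library was more than 4 times as high as any GFP library (4.80-fold; log2 fold change 2.26, SE 0.064, adjusted p = 2.5e-22). Pcna, the sliding clamp, rose from 358 ± 13.2 to 505 ± 13.4 CPM (SD, n = 4 each; log2 fold change 0.50, SE 0.046, adjusted p = 4.8e-11). A copy of the gene, Pcna-ps2, went from 5.86 to 8.36 CPM (0.51), and reads may be shared between them. Fen1, the flap nuclease that prepares the same fragments for ligation, had almost no counts. It held 2 counts in GFP replicate 3, none in the other GFP libraries, and 20, 23, 17 and 5 counts in Trim27 replicates 1 to 4, too few to be tested. The ratio of its scaled counts was 18.7 (95% counting interval 4.96 to 157.3). Of its 2422 exon bases, 1908 are shared with the antisense gene Gm10143, which itself held 4 counts in all, so the level listed for Fen1 is uncertain.

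The clamp loader RFC and the single-strand binding complex RPA each had 1 subunit up and the rest down by TMM. Rfc2 was at 652, 608, 643 and 625 CPM in GFP replicates 1 to 4 and 334, 358, 371 and 359.8 CPM in Trim27 replicates 1 to 4, lower in every Trim27 library (log2 fold change -0.83, SE 0.047, adjusted p = 5.8e-16). It shares 952 of 4995 exon bases with Lat2, which rose (0.83). Rfc1, the large subunit, fell from 66.96 ± 3.04 to 32.995 ± 1.62 CPM (SD, n = 4 each; log2 fold change -1.02, SE 0.074, adjusted p = 2.0e-13). Rfc4 (-0.53) and Rfc5 (-0.29) fell less, and Rfc5 was at 0.011 under library size alone. Rfc3 rose from 57.7 ± 3.28 to 111 ± 2.95 CPM (SD, n = 4 each; log2 fold change 0.94, SE 0.063, adjusted p = 2.1e-14). Per kilobase of exon, Rfc2 lay highest and Rfc3 next to last in the GFP group (126.5 ± 3.90 and 43.8 ± 2.49 CPM), whereas in the Trim27 group Rfc3 lay highest (84.3 ± 2.24) and Rfc2, Rfc4 and Rfc5 were at 71.2 ± 3.12, 75.1 ± 3.01 and 76.2 ± 2.94 (SD, n = 4). Rfc1 was lowest in both, at 14.0 ± 0.634 and 6.88 ± 0.338 CPM per kilobase. Rpa1, the large RPA subunit that binds DNA, was at 105, 107, 103 and 92.8 CPM in GFP replicates 1 to 4 and 212, 201, 192 and 204 CPM in Trim27 replicates 1 to 4. It was about doubled (log2 fold change 0.99, SE 0.056, adjusted p = 7.1e-16). Rpa2 fell (-0.30, but 0.0075 under library size alone). Rpa3, the smallest subunit, was at 41.5, 42.3, 41.4 and 41.8 CPM in GFP replicates 1 to 4 and 26.8, 18.7, 18.9 and 17.8 CPM in Trim27 replicates 1 to 4 and fell (log2 fold change -1.02, SE 0.11, adjusted p = 6.3e-10). Its value was -0.21 (adjusted p = 0.0855) with the length trend fitted on abundant genes removed, the gene being only 670 bases long in exons. With the trend fitted on all genes removed it was -0.49 (adjusted p = 0.000111). Trim27 replicate 1 was the highest of its group, and without it the value was -1.20.

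None of the polymerase and primase genes among the 54 members changed 2-fold. In the polymerase alpha and primase complex, which makes the primers, Pola1 was at 21.7, 18.5, 15.9 and 16.04 CPM in GFP replicates 1 to 4 and 25.1, 17.6, 17.1 and 22.5 CPM in Trim27 replicates 1 to 4 and Pola2 at 133, 127, 126 and 125 CPM in GFP replicates 1 to 4 and 111, 128, 132 and 126 CPM in Trim27 replicates 1 to 4, and neither passed (0.19, adjusted p = 0.195, and -0.041, adjusted p = 0.519). Both groups overlapped. Prim1, the catalytic primase subunit, rose (log2 fold change 0.23, SE 0.068, adjusted p = 0.00245), and Prim2 fell (log2 fold change -0.24, SE 0.064, adjusted p = 0.000992), though Prim2 was at 0.062 under library size alone. Of the leading and lagging strand polymerases, Pold2 rose from 190.5 ± 4.66 to 276 ± 15.995 CPM (SD, n = 4 each; log2 fold change 0.54, SE 0.052, adjusted p = 9.4e-11). Pold1, the catalytic subunit of polymerase delta, rose with it (0.44), but was at -0.019 with the length trend removed. Pole, the catalytic subunit of polymerase epsilon, rose (0.34), but with the length trend removed it fell, at -0.49 (adjusted p = 8.4e-07). Pold1 and Pole were at 0.51 and 0.27 with the trend fitted on abundant genes removed.

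**Figure D4:**
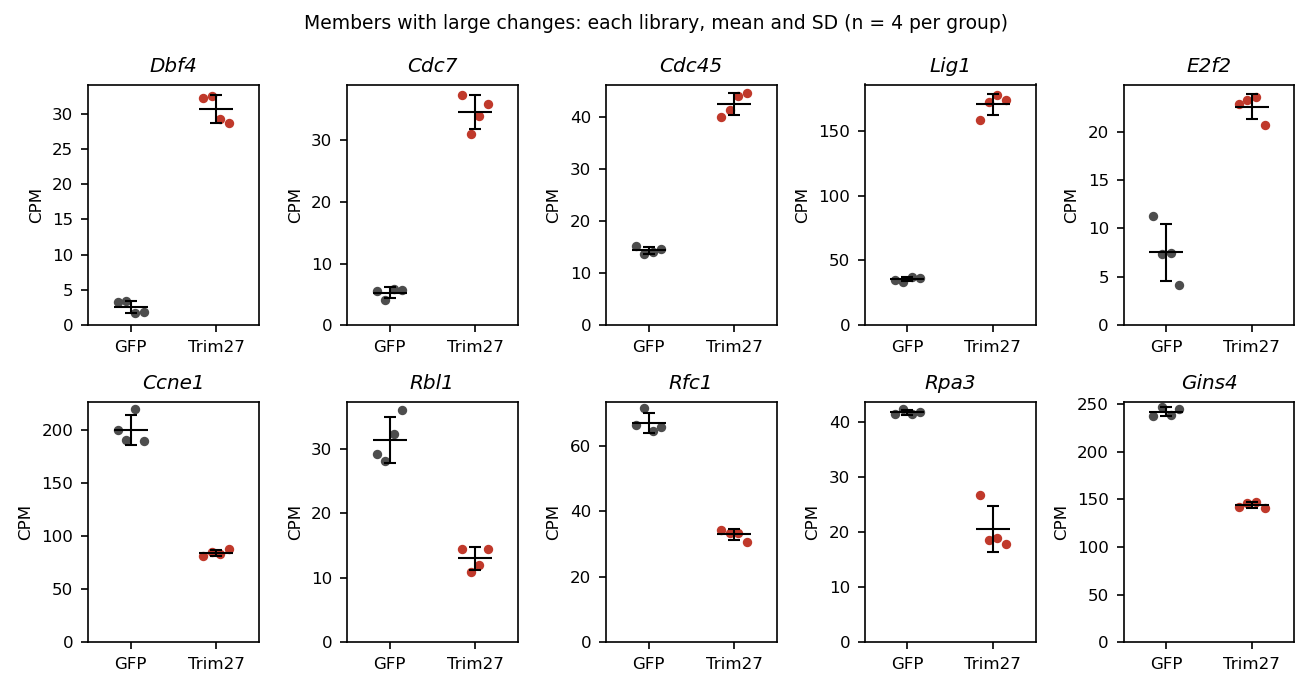
CPM (y axis, from 0) of 10 members in each of the 4 GFP and 4 Trim27 libraries, with the mean and SD as bars. Dbf4, Cdc7, Cdc45, Lig1 and E2f2 are higher and Ccne1, Rbl1, Rfc1, Rpa3 and Gins4 lower in all Trim27 libraries.

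Of the 4 nucleotide supply genes, 2 were up, 1 was down and 1 did not pass (median 0.25). Rises were 50% and falls 25% of these 4, against 47.5% and 38% of all genes. The 4 genes summed to 1106 to 1134 CPM with GFP and 1192 to 1239 CPM with Trim27. The 2 subunits of ribonucleotide reductase, which makes deoxynucleotides, rose together. Rrm2, the small subunit whose level follows S phase, was at 256, 281, 250.02 and 263 CPM in GFP replicates 1 to 4 and 416, 358, 369.6 and 379.97 CPM in Trim27 replicates 1 to 4 (log2 fold change 0.54, SE 0.053, adjusted p = 1.4e-10). Rrm1, the large subunit, was at 231, 249, 235 and 228 CPM in GFP replicates 1 to 4 and 341, 319.6, 320.1 and 328 CPM in Trim27 replicates 1 to 4 (log2 fold change 0.47, SE 0.049, adjusted p = 3.6e-10). Neither overlapped between groups, but with the length trend removed Rrm1 was at -0.061 (adjusted p = 0.257). With the trend fitted on abundant genes removed it was at 0.52 (adjusted p = 1.7e-10). The log2 ratio of Rrm1 to Rrm2 counts was -0.15 ± 0.0484 with GFP and -0.22 ± 0.0502 with Trim27 (SD, n = 4 each), and the groups overlapped. Thymidine kinase (Tk1), the salvage enzyme, was at 434, 411, 434 and 444 CPM in GFP replicates 1 to 4 and 291, 322, 320.1 and 315 CPM in Trim27 replicates 1 to 4. It fell in every Trim27 library (log2 fold change -0.47, SE 0.048, adjusted p = 4.1e-10). Thymidylate synthase (Tyms), which makes thymidylate anew, was at 186, 194, 188 and 192 CPM in GFP replicates 1 to 4 and 191, 193, 196 and 190.4 CPM in Trim27 replicates 1 to 4. Its groups overlapped (log2 fold change 0.017, SE 0.048, adjusted p = 0.741), and its value ran from -0.39 without the length trend to 0.32 scaled by library size.

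Of the 12 G1/S regulators, 7 fell, 3 rose and 2 did not pass (median -0.33), with 4 down and 5 up under library size alone. The share that fell was 58.3%, against 38% of all genes tested. Falls made up 56.3% of all genes of 6 log2 CPM or more and 32.2% of those below. The 12 regulators lie on both sides of that bound, as Cdk4 and Cdk6 do, so neither share is a matched background. The regulators summed to 3113 to 3246 CPM with GFP and 2352 to 2522 CPM with Trim27, most of it Cdk4. The 2 E cyclins, which activate Cdk2 at S phase entry, went in opposite directions. Ccne1 was at 199.9, 190.3, 219.8 and 189.8 CPM in GFP replicates 1 to 4 and 81.3, 85.1, 83.4 and 87.6 CPM in Trim27 replicates 1 to 4. Every Trim27 library lay far below the lowest GFP library (0.422-fold; log2 fold change -1.25, SE 0.057, adjusted p = 5.0e-18). Ccne2 was at 0.228, 0, 0 and 0.206 CPM in GFP replicates 1 to 4 and 5.90, 3.79, 3.81 and 4.50 CPM in Trim27 replicates 1 to 4. Over the 4 libraries of a group it held 4 counts in GFP and 283 in Trim27, a ratio of 40.6 (95% counting interval 15.7 to 150.1), and the fitted value (log2 fold change 5.23, SE 0.50, adjusted p = 6.8e-11) rests on those few counts. Ccne2 shares 336 of 3200 exon bases with Ints8 on the opposite strand, which went from 0.901 to 23.01 CPM, and reads of both cannot be told apart if strand was not used. Ccne1 was the more abundant of both cyclins in every library. There were 13.8, 22.4, 21.9 and 19.5 Ccne1 counts per Ccne2 count in Trim27 replicates 1 to 4, against 875.0 and 923.0 in the GFP libraries that had any. Cdk2, their kinase, rose (0.27), but was at -0.030 with the length trend removed. It was at 0.37 with the trend fitted on abundant genes removed.

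D cyclins and their kinases, which begin the inactivation of the retinoblastoma protein, fell together by TMM. Ccnd2 was at 84.2, 86.4, 77.5 and 84.5 CPM in GFP replicates 1 to 4 and 50.1, 57.5, 57.6 and 51.6 CPM in Trim27 replicates 1 to 4 (log2 fold change -0.62, SE 0.069, adjusted p = 1.9e-09). Ccnd3 was at 439, 405, 432 and 399 CPM in GFP replicates 1 to 4 and 312, 358, 344 and 331 CPM in Trim27 replicates 1 to 4 (log2 fold change -0.32, SE 0.051, adjusted p = 1.6e-06), but at -0.012 under library size alone. The log2 ratio of Ccnd2 to Ccnd3 was lower in each Trim27 library, with means of -2.33 ± 0.12 and -2.64 ± 0.0422 (SD, n = 4 each). Cdk4 was at 2051, 2069, 2049.8 and 1988 CPM in GFP replicates 1 to 4 and 1487, 1562, 1552 and 1529 CPM in Trim27 replicates 1 to 4 (log2 fold change -0.41, SE 0.041, adjusted p = 1.7e-10). It had the highest level per kilobase of all members, 993.3 CPM with GFP and 746.3 CPM with Trim27. It shares 641 of 2053 exon bases with Tspan31 on the opposite strand, which fell as well (-0.56). Cdk6 was at 17.5, 17.8, 17.2 and 19.3 CPM in GFP replicates 1 to 4 and 15.1, 12.6, 14.8 and 14.3 CPM in Trim27 replicates 1 to 4 (log2 fold change -0.34, SE 0.12, adjusted p = 0.0107), but at -0.034 under library size alone. The log2 ratio of Cdk6 to Cdk4 was -6.83 ± 0.0977 and -6.76 ± 0.142 (SD, n = 4 each), and the groups overlapped.

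Of the E2F factors, E2f2, an activator, rose and E2f1, another activator, fell. E2f2 went from 7.54 ± 2.94 to 22.6 ± 1.29 CPM (SD, n = 4 each; log2 fold change 1.59, SE 0.18, adjusted p = 6.5e-09). GFP replicate 1 was highest of its group (11.3 CPM) and GFP replicate 4 lowest (4.11 CPM), and all lay below the lowest Trim27 library (20.7 CPM). E2f1 fell from 109 ± 5.11 to 81.2 ± 8.66 CPM (SD, n = 4 each; log2 fold change -0.42, SE 0.069, adjusted p = 2.0e-06), though it was at -0.12 (adjusted p = 0.1) under library size alone. E2f4, which binds the pocket proteins in resting cells, was at 234, 209, 213 and 207 CPM in GFP replicates 1 to 4 and 203, 237, 232 and 220.4 CPM in Trim27 replicates 1 to 4, with overlapping groups (log2 fold change 0.050, SE 0.056, adjusted p = 0.404). Among the pocket proteins that hold E2F factors, Rbl1 (p107) was at 29.1, 28.1, 32.3 and 35.99 CPM in GFP replicates 1 to 4 and 14.4, 10.96, 12.04 and 14.51 CPM in Trim27 replicates 1 to 4. No Trim27 library reached the GFP range (0.412-fold; log2 fold change -1.28, SE 0.12, adjusted p = 3.5e-11). Rb1 was at 11.1, 12.1, 7.29 and 8.95 CPM in GFP replicates 1 to 4 and 13.96, 8.79, 9.17 and 10.1 CPM in Trim27 replicates 1 to 4. Its groups overlapped (log2 fold change 0.088, SE 0.18, adjusted p = 0.643), and the value lay between -0.50 and 0.39 over the scalings. The log2 ratio of Rb1 to Rbl1 went from -1.69 ± 0.457 to -0.32 ± 0.2 (SD, n = 4 each) without overlap.

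**Figure D5:**
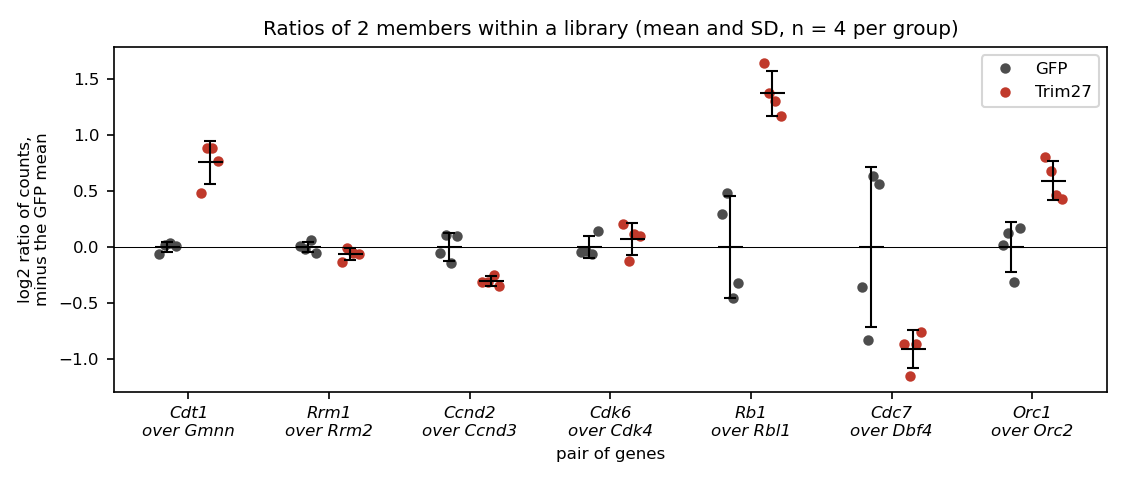
Log2 ratio of the counts of 2 members within a library, less the GFP mean (y axis), for the 7 pairs with counts in every library (x axis); points are the 4 GFP (grey) and 4 Trim27 (red) libraries, bars the mean and SD. The groups do not overlap for Cdt1 over Gmnn, Ccnd2 over Ccnd3, Rb1 over Rbl1 and Orc1 over Orc2, and they overlap for the other 3 pairs.

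A further 62 genes of replication and S phase also split. Of 61 found in the table and 60 tested, 34 were up, 17 down and 9 without a call (median 0.31, beside 0.14 for all genes). The rises made up 56.7% of them and the falls 28.3%, against 47.5% and 38% of all genes. The 17 rises of at least 2-fold made up 28.3% and the falls of at least 2-fold 10%, against 31.3% and 16%. By the smallest p this list was led by Topbp1, a scaffold of helicase activation (11.9 to 124 CPM, 3.38), Orc5, an origin recognition subunit (7.16, from 8 counts over the GFP libraries), Pole3, a small subunit of polymerase epsilon (225 to 97.7 CPM, -1.21), and E2f3, an activator E2F (6.31, from 8 counts over the GFP libraries). The summed level of the list was 4579 to 4628 CPM with GFP and 4626 to 4866 CPM with Trim27. The list of 25 mitosis genes had 14 up, 9 down and 2 not passing (median 0.23). Rises made up 56% of that list and falls 36%, against 47.5% and 38% of all genes. By the smallest p it was led by the checkpoint genes Bub3 (1.51) and Mad2l1 (1.73). The spindle gene Nusap1 (2.47) and the topoisomerase Top2a (1.25) followed. The mitosis list summed to 2986 to 3073 CPM with GFP and 3567 to 3622 CPM with Trim27. The 54 members summed to 10281 to 10444 and 9610 to 9932 CPM. As a share of raw counts, the members took 0.93% to 0.943% with GFP and 1.08% to 1.10% with Trim27, so the direction of their sum turned with the scaling. Differences between these lists were not tested.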

How the data were processed

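Raw counts of reads for each gene symbol were deposited by the authors as 1 table, made with bcl2fastq, HISAT2 and featureCounts on the build NCBIM37, per the submitters' processing notes. For versions, annotation and strand setting the entry is: not given in the sources used here. One row without a gene name held 0 counts and was left out. Even values made up 64.7% to 72.0% of counts from 1 to 10 in a library, and counting intervals are too narrow where a fragment was counted as 2 reads. Intervals cover counting error only.

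The analysis used R 4.3.3 and edgeR 4.0.16 (filterByExpr with minimum count 10 and total 15, TMM, robust quasi-likelihood test, 4 Trim27 against 4 GFP libraries, no covariate, 2-sided, Benjamini-Hochberg over 11040 genes, threshold 0.05). SE is the log2 fold change over the root of F. Alternatives used DESeq2 1.42.0 and limma 3.58.1. Exon lengths and overlaps came from GENCODE M21 (GRCm38), whose lengths matched 32979 of 33435 symbols. By these exons 20 members share bases with another gene, and not all of those overlaps are described above. Length trends were lowess fits with a span of 0.3. No coordinates were carried between builds.

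All members are named. Values in each library are given for the 3 members of each role with the smallest p, the 2 with the largest p, and 8 pairs, and 4 genes of each further list are named by smallest p. Promoters were picked among the 3 smallest p of licensing, nucleotide supply and G1/S genes, at most 2 per role, by most E2F matches. Of those picked, only Rbl1 held a match in the stretch before the start, and the others are not printed. The promoters of Mcm5, Mcm6 and Mcm7 were chosen after the matches were seen. The members and lists were chosen with earlier results of these data known. Supt16h was looked up as Supt16, and Cdkn2d and Hbb-b1 are not analysed here.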

Additional observations from a re-analysis of the deposited data

Results flagged for a closer look

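In 6 of 108 groups of 4 libraries (54 members in 2 groups), 1 library lay far from the other 3 by Dixon's criterion, and chance flags about 1 in 20 groups. Trim27 replicate 1 was such a library for Cdt1, at 329.3 CPM against 395.3 to 407.8 CPM in the others, and for Rpa3, at 26.8 CPM against 17.8 to 18.9 CPM. In the GFP group, Gins1 was low in replicate 3 (56.6 CPM, others 59.5 to 60.1), Pola2 was high in replicate 1 (133.0 CPM, others 125.2 to 126.5) and Pole was low in replicate 4 (40.5 CPM, others 46.4 to 47.2). Among the GFP libraries, Fen1 had a level above 0 only in replicate 3 (0.239 CPM), which is 2 counts.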

How the results depend on the processing

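The member counts (24 up, 23 down) were within 1.5 times of these under DESeq2 size factors, upper-quartile factors, no filter, a minimum of 10 CPM in 4 libraries, DESeq2's Wald test, limma-voom, the replicate block (24 up, 23 down, with 5133 and 4027 over all genes) and an adjusted p under 0.01. Under library size alone 12 fell, with the length trend removed 15 rose, and for a fold above 1.5 by glmTreat 9 rose and 6 fell (2452 falls over all genes). With that minimum of 10 CPM 3453 genes rose, fewer being tested. The small median of the members moved to 0.078 (DESeq2 size factors and Wald test), 0.098 (upper-quartile factors), 0.099 (no filter), 0.35 (library size alone), 0.13 (length trend removed as fitted on abundant genes) and -0.39 (length trend removed as fitted on all genes). Leaving out 1 library gave 23 to 25 rises, 23 falls and a median from -0.0087 to 0.12, and over all genes 5100 to 5351 rises and 4118 to 4334 falls. The median was -0.0016 without Trim27 replicate 3 and -0.0087 without Trim27 replicate 1. The cause was not tested. Same-numbered libraries did not deviate together (correlations -0.0345 to 0.0207 over 4 pairs), and the replicate block changed no call of a named gene.

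Directions turned for these members. Under library size alone they were Mcm5 (0.022), Orc6 (0.053), Rfc5 (0.011), Rpa2 (0.0075), Pola2 (0.26) and Prim2 (0.062). With the length trend removed they were Mcm3 (-0.081), Mcm7 (-0.0071), Cdt1 (-0.024), Orc2 (-0.48), Mcm10 (-0.36), Pola1 (-0.49), Pold1 (-0.019), Pole (-0.49), Rrm1 (-0.061), Tyms (-0.39), Cdk2 (-0.030), E2f4 (-0.14) and Rb1 (-0.50). Pola2 was at 0.0073 with upper-quartile factors and 0.031 with the trend of abundant genes removed, and Orc2 at -0.0017 with limma-voom. Leaving out 1 library gave -0.069 to 0.035 for Orc2, -0.11 to 0.20 for Rb1, -0.024 to 0.025 for Tyms and -0.014 to 0.088 for E2f4, none of which passed.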
